A study of Mus musculus with 39 samples.

Results

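Bile acid and sphingomyelin handling in the duodenum is described here through 7 genes, namely Nr1h4, Nr0b2, Slc10a2, Slc51a, Slc51b, Cyp27a1 and Enpp7. They were taken by symbol from a list of 9 genes of the FXR axis, of ileal-type bile acid transport and of sphingomyelin digestion, out of 16358 genes in the deposited count table. Fgf15 and Fabp6, the other listed genes, were not analysed here. Total RNA of duodenum was sequenced in 39 libraries of wild-type male C57BL/6 mice aged 8 weeks. Every mouse carried a cannula in a lateral brain ventricle, placed 3 days earlier, and was without food for 2 h before the injection. The 6 Leptin-antibiotic libraries came from mice that had drunk water with 1 g/L of ampicillin and 0.5 g/L of neomycin over 48 h and then received 3 µg of leptin through the cannula. The 6 Saline-antibiotic libraries had the same drinking water and a saline injection. The 13 Leptin-water and 14 Saline-water libraries had the same injections and no antibiotic. Tissue was taken 2 h after injection in all groups, and its RNA came from mixed cell types. The library names in the labels are of 2 kinds, here called set MT (6 libraries of each of the 4 groups) and set M (7 Leptin-water and 8 Saline-water libraries). Whether every library is its own mouse is not in the labels, so p-values measure the spread between these libraries, which may in part be technical.

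Bile acids are made from cholesterol in the liver, enter the duodenum with bile, and are largely taken up again in the terminal ileum. There the apical carrier SLC10A2 (ASBT) brings them into the enterocyte and the paired subunits SLC51A and SLC51B (OSTα and OSTβ) release them towards the blood. The nuclear receptor FXR, encoded by Nr1h4, senses bile acids and induces Nr0b2 (the corepressor SHP) and the SLC51 subunits, while SHP in turn dampens other nuclear receptors. CYP27A1 is a mitochondrial sterol hydroxylase that opens the alternative route of bile acid synthesis. ENPP7, the alkaline sphingomyelinase of the brush border, splits dietary and biliary sphingomyelin into ceramide and phosphocholine and needs bile salts to do so. Gut bacteria deconjugate and dehydroxylate bile acids, so oral antibiotics can alter the bile acids that reach these proteins.

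Library totals ran from 30207536 to 67870777 counts (median 48282125). The exocrine pancreas markers averaged 5.05 to 5.97 log2 CPM (counts scaled by library size) in 6 libraries, namely Leptin-antibiotic 3, Saline-antibiotic 1, 2 and 5 and Leptin-water 6 and 10, against −1.69 to 3.29 elsewhere. Hepatocyte markers bear on this subject because liver expresses several of the genes. The mean of the 10 hepatocyte markers measured, out of 12 listed, was −1.30 to −0.46 log2 CPM in 23 set MT libraries. It was 3.21 in the remaining one, Saline-antibiotic 2, and 3.20 to 6.29 in the 15 set M libraries. Alb, the albumin gene, had at most 29 counts in the 23 set MT libraries, against 3568 to 29612 counts in set M. The antibiotic was given in set MT only, so its comparisons used that set, and fits of both sets held a term for set.

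**Figure D1:**
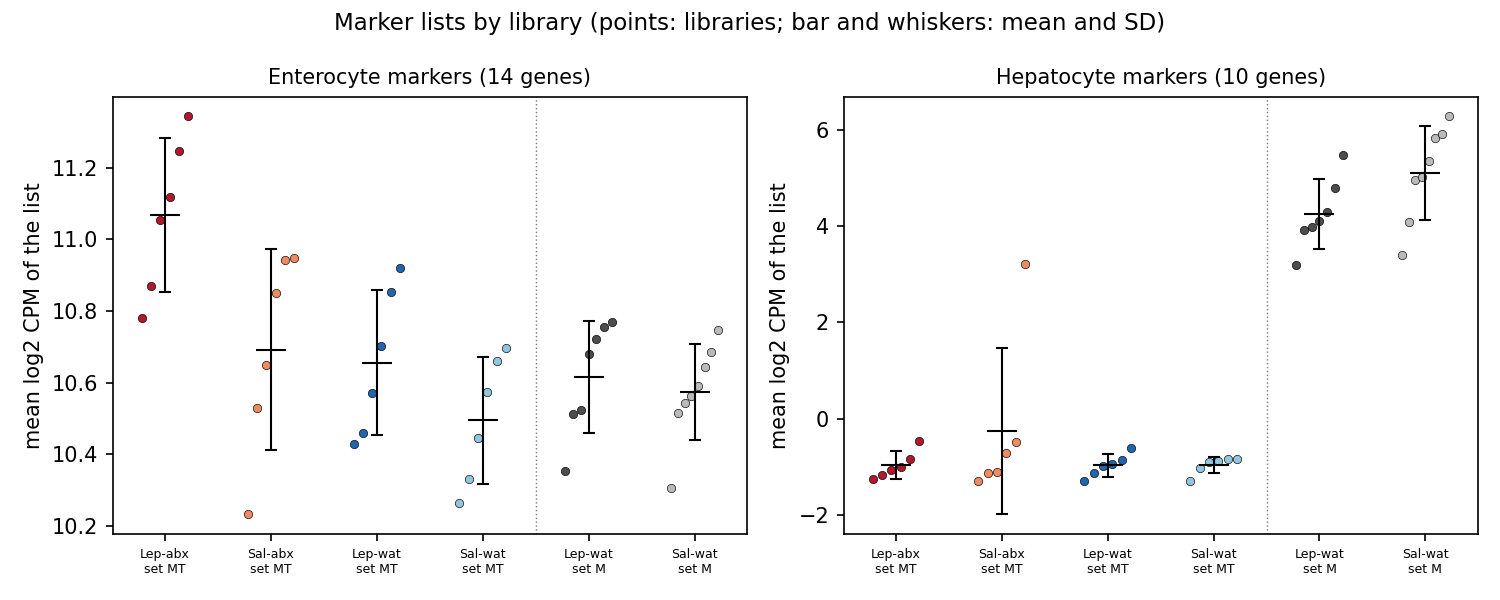
Mean log2 CPM of the enterocyte list (14 genes, left) and the hepatocyte list (10 genes, right) in each of the 39 libraries, by set and group, with mean and SD. Hepatocyte transcripts set the 15 set M libraries (3.20 to 6.29) apart from 23 of the set MT libraries (−1.30 to −0.46), and the enterocyte mean was highest in Leptin-antibiotic libraries (11.07 ± 0.22).

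All 7 genes passed the filter on low counts in every fit. Scaled by exon length as well as library size (RPKM), the efflux subunit gene Slc51a stood highest over the 39 libraries, at 33.1 ± 5.34 RPKM (SD). Next came its partner Slc51b at 20.3 ± 5.38, Nr1h4 at 17.3 ± 2.78 and Cyp27a1 at 17.0 ± 4.77 RPKM. Their SD ranges overlapped, and levels were not tested between genes. Nr0b2 followed at 6.83 ± 1.84 RPKM and Enpp7 at 1.81 ± 1.10 RPKM. The ileal uptake carrier Slc10a2 was lowest at 0.365 ± 0.164 RPKM, so in this duodenal tissue the apical carrier's transcript was far below those of the basolateral exporter. The ratio of Slc51a to Slc51b in RPKM had a median of 1.70 and a range of 0.828 to 2.36 over the libraries.

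The genes lie apart on GRCm38. Nr1h4 is on chromosome 10 (89454234 to 89533585, minus strand), Nr0b2 on chromosome 4 (133553376 to 133556536, plus strand) and Slc10a2 on chromosome 8 (5083219 to 5105351, minus strand). Slc51a is on chromosome 16 (32474504 to 32487879, minus strand) and Slc51b on chromosome 9 (65412714 to 65422955, minus strand). Cyp27a1 is on chromosome 1 (74713574 to 74737892, plus strand) and Enpp7 on chromosome 11 (118988188 to 118993221, plus strand). All are protein coding. In the annotation 567 of 3198 exonic bases of Slc51a overlap exons of Pcyt1a on the opposite strand, and 91 of 709 of Slc51b overlap exons of Rasl12. The strand setting of the counting is not given in the sources used here, so reads in those stretches may not be separable.

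The promoters of the paired efflux subunits are shown because these genes, which FXR is known to induce, varied together. Each is 250 bases before to 50 bases after the RefSeq start (GRCm38.p6), written 5′ to 3′ on the gene's strand. Capitals mark matches, on either strand, to the nuclear receptor hexamer AGGTCA and to an inverted repeat of GGTCA and TGACC with 1 base between them (the class of element that FXR with RXR binds), the repeat with at most 1 mismatch. The inverted repeat shares GGTCA with the hexamer, and they were counted separately.
Slc51a, chr16:32487830-32488129, minus strand: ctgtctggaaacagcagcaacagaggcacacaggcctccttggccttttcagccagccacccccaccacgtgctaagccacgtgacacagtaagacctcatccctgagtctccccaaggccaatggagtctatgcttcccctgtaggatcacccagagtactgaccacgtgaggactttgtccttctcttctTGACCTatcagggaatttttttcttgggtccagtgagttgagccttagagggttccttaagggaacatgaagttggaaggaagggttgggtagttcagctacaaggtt
Slc51b, chr9:65422724-65423023, minus strand: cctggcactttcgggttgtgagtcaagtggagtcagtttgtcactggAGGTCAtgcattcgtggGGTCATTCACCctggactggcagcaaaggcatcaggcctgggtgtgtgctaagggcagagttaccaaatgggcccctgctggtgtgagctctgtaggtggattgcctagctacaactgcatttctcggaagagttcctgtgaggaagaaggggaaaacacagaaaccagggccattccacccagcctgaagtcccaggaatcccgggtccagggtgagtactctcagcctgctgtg

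The Slc51b window held an inverted-repeat match starting at position -186 and a hexamer at -203, and the Slc51a window held a hexamer at -58. Of 32841 promoter windows of this length, 0.758% held the inverted repeat and 16.3% the hexamer. These are matches of letters and say nothing of binding in this tissue. The windows of Nr0b2, Slc10a2, Cyp27a1 and Enpp7 had neither, and that of Nr1h4 had 1 hexamer. The Nr1h4 window (chr10:89506609-89506908, minus strand) lies inside the gene span given above, not at its 5′ end.

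The antibiotic moved 4 of the 7 genes when the 12 antibiotic libraries were set against the 12 water libraries of set MT. Slc10a2, Nr0b2 and Enpp7 rose, Nr1h4 fell, and the efflux subunits and Cyp27a1 did not pass the test. Over all genes 6.45% passed the same threshold (edgeR quasi-likelihood test, Benjamini-Hochberg adjusted p below 0.05), 4.24% higher and 2.22% lower. In bulk tissue, fewer cells of a type and less RNA per cell cannot be told apart.

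Of the receptors, Nr1h4 had 30.1, 35.1 and 43.1 CPM (lowest, median, highest) in antibiotic libraries, against 35.0, 44.8 and 57.6 CPM in water libraries. All 12 antibiotic libraries lay below the water median, and 6 lay below every water library of set MT. Nr1h4 fell to 0.782 of the water level (log2 −0.35, SE 0.08, adjusted p = 0.00743). Its induced corepressor gene Nr0b2 went the other way, at 5.39, 9.50 and 13.3 CPM in antibiotic libraries, against 3.46, 6.92 and 8.89 CPM in water libraries. Of the antibiotic libraries, 9 exceeded every water library of set MT, and the rise was 1.47-fold (log2 0.56, SE 0.14, adjusted p = 0.0187). Water libraries of set M, outside this fit, reached down to 32.5 CPM for Nr1h4 and up to 9.12 CPM for Nr0b2. Saline-water libraries alone differed between sets (MT minus M) by log2 0.25 for Nr1h4 and −0.40 for Nr0b2, neither past the threshold.

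The uptake carrier gene Slc10a2 had 0.965, 2.06 and 3.19 CPM in antibiotic libraries, against 0.639, 1.08 and 2.33 CPM in water libraries. It was above the water median in 11 of 12 antibiotic libraries, and 5 exceeded every water library. The rise was 1.80-fold (log2 0.85, SE 0.16, adjusted p = 0.00253), from counts that stayed low in both groups. The efflux subunits showed no such rise. Slc51a averaged 105 ± 20.7 CPM with antibiotic and 108 ± 17.6 CPM on water (SD, n = 12 each; log2 −0.04, adjusted p = 0.816), and its 95% interval of 0.861- to 1.09-fold ended below that of Slc10a2 (1.45- to 2.24-fold). Slc51b averaged 13.8 ± 3.24 CPM with antibiotic and 16.5 ± 5.00 CPM on water (log2 −0.25, adjusted p = 0.342, interval 0.687- to 1.03-fold).

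Cyp27a1, the sterol hydroxylase gene, averaged 41.7 ± 14.7 CPM with antibiotic and 34.5 ± 8.64 CPM on water and did not pass (log2 0.23, SE 0.12, adjusted p = 0.268). Its antibiotic libraries were spread widely, with 5 above every water library, all Leptin-antibiotic, and 1 below, a Saline-antibiotic library. Enpp7, the sphingomyelinase gene, had the largest change of the 7. It had 2.25, 5.16 and 8.87 CPM in antibiotic libraries, against 0.806, 1.84 and 6.54 CPM in water libraries. All 12 antibiotic libraries were above the water median and 4 exceeded every water library, a 2.46-fold rise (log2 1.30, SE 0.28, adjusted p = 0.00743).

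**Figure D2:**
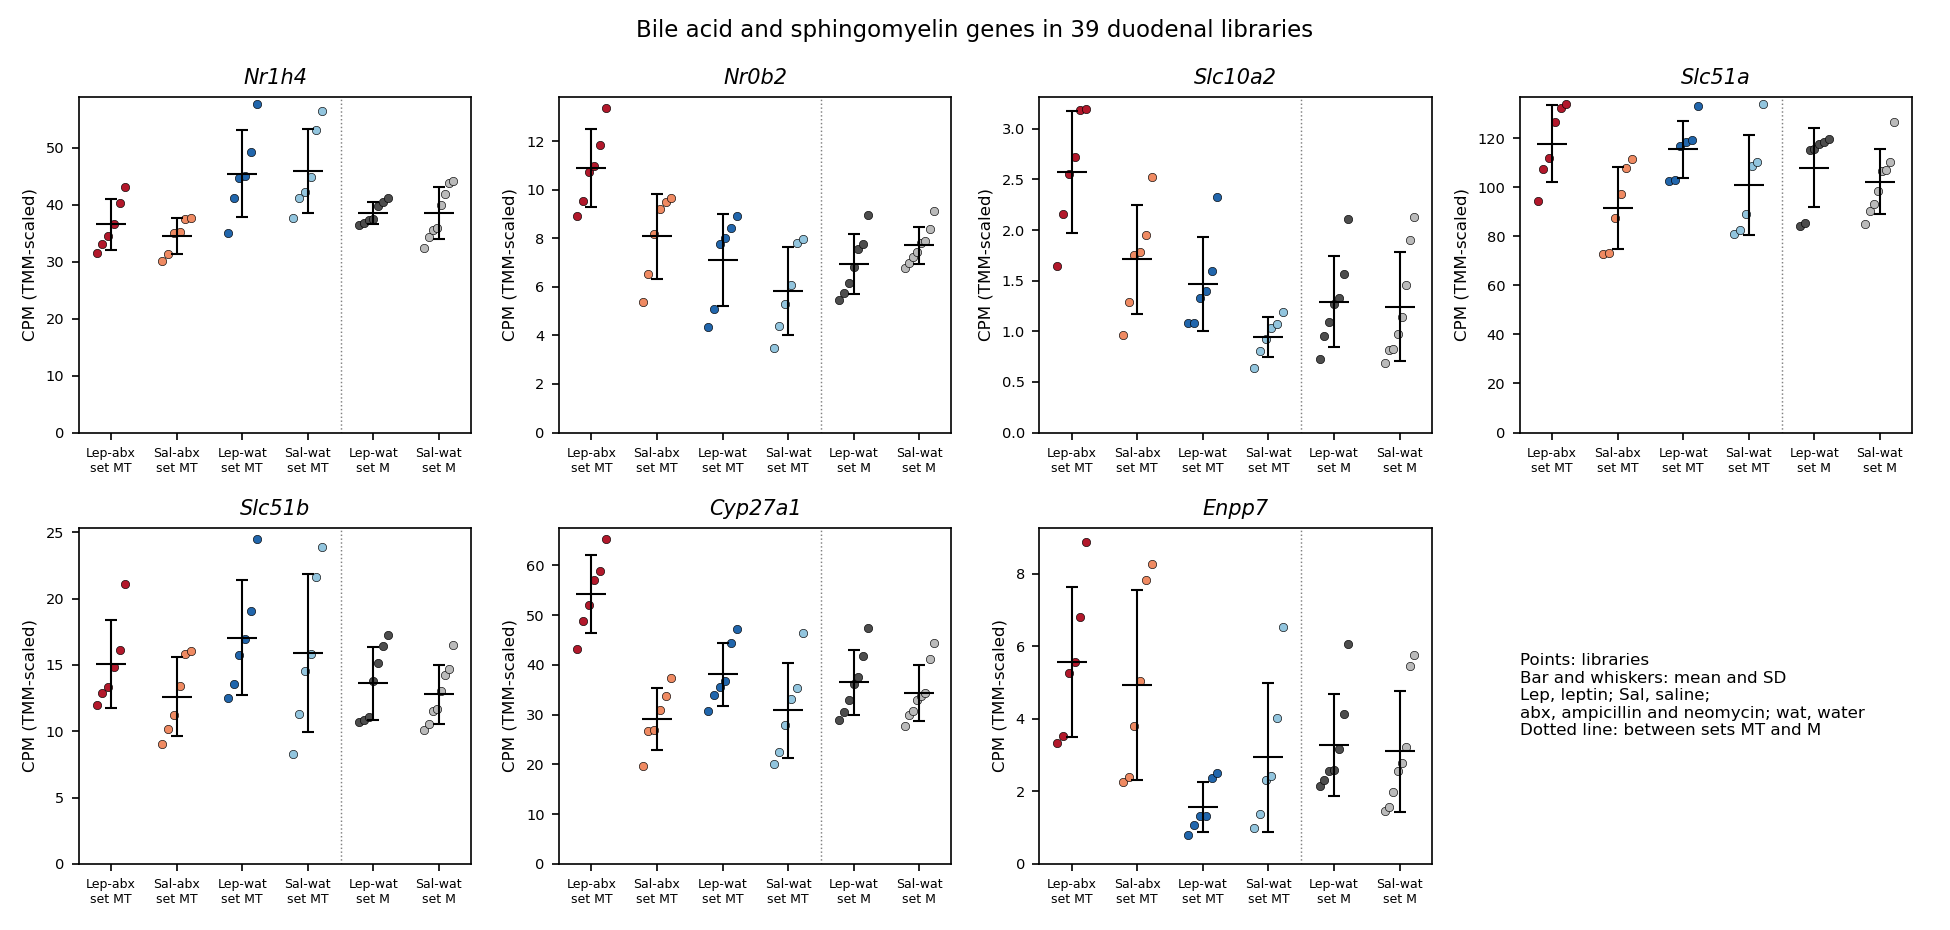
TMM-scaled CPM of the 7 genes in each of the 39 libraries (points), by set and group, with mean and SD. Slc10a2, Nr0b2 and Enpp7 sat higher and Nr1h4 lower in the antibiotic groups than in the water groups of set MT. Cyp27a1 in Leptin-antibiotic libraries (43.2 to 65.3 CPM) did not overlap Saline-antibiotic libraries (19.6 to 37.3 CPM) but did overlap the water groups. The share of all genes without overlap between those antibiotic groups was not counted.

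Enterocyte markers moved with the antibiotic too. Of 14 markers 14 were positive and 5 passed (median log2 0.28, against 0.00 over all genes), and their mean was 10.23 to 11.34 log2 CPM in antibiotic libraries and 10.26 to 10.92 in water libraries. With that mean as a covariate, chosen after seeing the data, Nr1h4 was still lower (log2 −0.43, adjusted p = 0.0105). Slc10a2 (log2 0.57, adjusted p = 0.0657) and Nr0b2 (0.50, adjusted p = 0.101) no longer passed, nor did Enpp7 (0.56, adjusted p = 0.234). In that fit Slc51a (−0.31, adjusted p = 0.0114) and Slc51b (−0.58, adjusted p = 0.0358) were lower. Pancreas markers were positive with antibiotic in 20 of 20, with 0 passed (median log2 2.03). Without the libraries high in them Slc10a2 (log2 0.99, adjusted p = 0.000929) and Enpp7 (1.51, adjusted p = 0.00536) passed, whereas Nr0b2 (0.52, adjusted p = 0.0617) and Nr1h4 (−0.27, adjusted p = 0.0553) did not. Each of the 4 calls held when any 1 of the 24 libraries was left out, with a highest adjusted p of 0.0374, for Nr0b2. Of the other cell type lists, 2 of 9 smooth muscle and 1 of 8 biliary markers were higher and 2 of 10 macrophage markers lower with antibiotic. None of 10 crypt, 10 stomach and Brunner gland, 7 hepatocyte or 4 distal small intestine markers passed in that contrast.

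By injection, the antibiotic raised 2 of the genes in leptin mice, where 2.28% of all genes passed, and none in saline mice, where 0.196% passed. In leptin mice Enpp7 had 3.35, 5.42 and 8.87 CPM with antibiotic, against 0.806, 1.32 and 2.51 CPM on water. These groups of 6 of set MT did not overlap (log2 1.84, SE 0.41, adjusted p = 0.0182). The share of all genes whose groups of 6 do not overlap was not counted. Set M Leptin-water libraries, outside this fit, had 2.14 to 6.08 CPM of Enpp7 and overlapped the antibiotic group. The call was lost without Leptin-antibiotic 2, Leptin-water 8 or Leptin-water 9 (highest adjusted p = 0.0731). In saline mice Enpp7 had 2.25, 4.42 and 8.27 CPM with antibiotic, against 0.988, 2.36 and 6.54 CPM on water, with overlap (log2 0.76, SE 0.39, adjusted p = 0.440). Enterocyte markers were positive in 14 of 14 in leptin mice, with 2 passed (median log2 0.35), and in 13 of 14 in saline mice, with 0 passed (median 0.14). Smooth muscle markers were positive in 9 of 9 in both, with 1 passed in leptin mice and 0 in saline mice. In saline mice stomach and Brunner gland markers were positive in 10 of 10 (median log2 0.88) and pancreas markers in 19 of 20 (3.16). Hepatocyte markers were positive there in 6 of 7 (0.84) and macrophage markers negative in 10 of 10 (−0.32). In leptin mice the same lists, in that order, stood at 5 of 10, 20 of 20, 4 of 7 and 8 of 10, with 0 passed in either. Saline-antibiotic 2 alone of its group had a high hepatocyte mean, at 3.21 log2 CPM. The rest of that group had −1.29 to −0.49 log2 CPM, so this library weighs on the hepatocyte values of saline mice. With the enterocyte mean as a covariate neither gene passed in leptin mice, Enpp7 at log2 0.90 (adjusted p = 0.282) and Slc10a2 at 0.46 (adjusted p = 0.411), and in saline mice Nr1h4 was lower (−0.46, adjusted p = 0.0419).

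Slc10a2 had log2 values of 0.83 (adjusted p = 0.0462) in leptin mice and 0.87 (adjusted p = 0.107) in saline mice. Its call in leptin mice stood in 8 of the 24 fits that left out 1 library, with log2 values of 0.74 to 0.98. In leptin mice of set MT, Nr0b2 had 8.90 to 13.3 CPM with antibiotic and 4.36 to 8.89 CPM on water, and set M Leptin-water reached 8.95 CPM. Its lowest antibiotic library (8.898 CPM) barely exceeded its highest set MT water library (8.894 CPM), and Nr0b2 did not pass (log2 0.63, adjusted p = 0.0807). In saline mice its log2 fold change was 0.48 (adjusted p = 0.324). Nr1h4 had −0.30 (adjusted p = 0.131) in leptin mice and −0.41 (adjusted p = 0.112) in saline mice. Cyp27a1 had log2 values of 0.52 (SE 0.17, adjusted p = 0.0947) in leptin mice and −0.07 (adjusted p = 0.894) in saline mice. The efflux subunits did not pass in either, with 0.04 in leptin mice and −0.13 in saline mice for Slc51a and −0.17 in leptin mice and −0.33 in saline mice for Slc51b. The contrast over both injections is the mean of these, and whether they differ is the same test as that of the leptin response by antibiotic, given with leptin.

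Leptin raised 1 of the 7 genes, Cyp27a1, and it did so in mice on antibiotic, where 0.514% of all genes passed. Cyp27a1 had 43.2, 54.6 and 65.3 CPM in Leptin-antibiotic libraries, against 19.6, 28.8 and 37.3 CPM in Saline-antibiotic libraries. All 6 leptin libraries exceeded every saline library, a 1.87-fold rise (log2 0.90, SE 0.17, adjusted p = 0.0160). How many of all genes separate these groups of 6 in this way was not counted. The call was lost without Leptin-antibiotic 2 or 3 or Saline-antibiotic 1 or 4 (log2 0.79 to 0.99 over all libraries left out, highest adjusted p = 0.0743), and without the libraries high in pancreas genes (log2 0.82, adjusted p = 0.304). Those libraries include Leptin-antibiotic 3 and Saline-antibiotic 1, 2 and 5, so the last fit had smaller groups. Enterocyte markers were positive in 14 of 14 in this contrast with 0 passed (median log2 0.34), and with their mean as a covariate Cyp27a1 stood at log2 0.67 (adjusted p = 0.498). The distal small intestine markers were positive in 4 of 4 and pancreas markers negative in 19 of 20, hepatocyte markers in 7 of 7 and crypt markers in 10 of 10, with 0 passed in each. The hepatocyte mean of the saline group was high in Saline-antibiotic 2 only (3.21 log2 CPM, against −1.29 to −0.49 in its other libraries).

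The other genes had positive log2 fold changes with leptin on antibiotic and did not pass. Slc10a2 had 1.64, 2.64 and 3.19 CPM in Leptin-antibiotic libraries, against 0.965, 1.77 and 2.52 CPM in Saline-antibiotic libraries (log2 0.60, SE 0.22, adjusted p = 0.174). Nr0b2 had 8.90 to 13.3 CPM with leptin, against 5.39 to 9.66 CPM with saline (log2 0.44, adjusted p = 0.253). Slc51a had 94.4 to 134 CPM with leptin, against 72.9 to 111 CPM with saline (log2 0.37, SE 0.12, adjusted p = 0.145). Values for Slc51b (log2 0.26), Enpp7 (0.19) and Nr1h4 (0.09) lay within the spread of the libraries, with adjusted p of 0.537 to 0.833.

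In mice on water none of the 7 genes passed, and 0.312% of all genes did. Cyp27a1 averaged 38.1 ± 6.38 CPM in Leptin-water and 30.9 ± 9.61 CPM in Saline-water libraries of set MT (SD, n = 6 each), and 36.5 ± 6.48 CPM in Leptin-water (n = 7) and 34.4 ± 5.70 CPM in Saline-water (n = 8) libraries of set M. Its log2 fold change over the 27 libraries was 0.18 (SE 0.11, adjusted p = 0.552), with 0.31 in set MT (0% of all genes passed) and 0.09 in set M (0.0306% passed). Slc10a2 had 0.31 (SE 0.19, adjusted p = 0.559), with 0.63 among set MT libraries and 0.07 among set M libraries. Enpp7 had values of different sign, log2 −0.90 in set MT (1.57 ± 0.70 CPM with leptin, 2.94 ± 2.05 CPM with saline) and 0.06 in set M. Nr0b2 had 0.29 in set MT and −0.16 in set M. Over the 27 libraries Slc51a, Slc51b, Nr0b2 and Nr1h4 had log2 values of 0.13, 0.09, 0.04 and −0.01, and Enpp7 had −0.35 (adjusted p of 0.557 to 0.978). Hepatocyte markers were negative in 10 of 10 with leptin on water and pancreas markers positive in 20 of 20, with 0 passed in each (medians −0.78 and 2.45, with 8 and 16 markers at an unadjusted p under 0.05). None of these differences between sets passed (adjusted p of 0.557 to 1.00 over the 7 genes, where 0.0428% of all genes passed).

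Over all 39 libraries, with the 3 strata as terms, leptin raised Cyp27a1 (log2 0.40, SE 0.10, adjusted p = 0.0206), where 3.01% of all genes passed. The 19 leptin libraries had 28.9, 41.8 and 65.3 CPM, against 19.6, 31.9 and 46.3 CPM in the 20 saline libraries, so the groups overlapped. The call held with any 1 library left out, but not without the libraries high in pancreas genes (log2 0.35, adjusted p = 0.0778) nor with the enterocyte covariate (0.23, adjusted p = 0.311). Slc51a (log2 0.20, SE 0.07, adjusted p = 0.0967) and Slc10a2 (0.40, SE 0.15, adjusted p = 0.129) did not pass. Nr0b2, Slc51b, Nr1h4 and Enpp7 had log2 values of 0.16, 0.14, 0.02 and −0.17 (adjusted p of 0.438 to 0.879). Enterocyte markers were positive in 14 of 14 here, with 1 passed (median log2 0.15). Hepatocyte markers were negative in 10 of 10 (median −1.09, 8 at an unadjusted p under 0.05) and crypt markers in 10 of 10 (median −0.16, 4 at that p), and pancreas markers were positive in 19 of 20 (median 1.11, 0 at that p), with 0 passed in each after adjustment. The part of the hepatocyte difference in the value of Cyp27a1, which liver also expresses, was not tested. The antibiotic libraries in which Cyp27a1 was called are part of this fit.

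The test of whether leptin acted differently with antibiotic than without it gave no call among the 7 genes or among all 16340 (0%) by edgeR, with 1043 genes at an unadjusted p under 0.05, and 0 genes passed by DESeq2 and by limma voom. Cyp27a1 had a leptin effect of log2 0.90 with antibiotic and 0.31 without it, in set MT (difference 0.59, SE 0.24, unadjusted p = 0.0211, adjusted p = 0.772). For Enpp7 the values were 0.19 with antibiotic and −0.90 without it (difference 1.09, SE 0.56, adjusted p = 0.772). For Slc10a2 the difference was −0.04 with an interval of −0.65 to 0.58, wide enough to hold changes of either sign. For Slc51a, Slc51b, Nr0b2 and Nr1h4 it was 0.17, 0.16, 0.15 and 0.10 (adjusted p of 0.839 to 0.921).

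**Figure D3:**
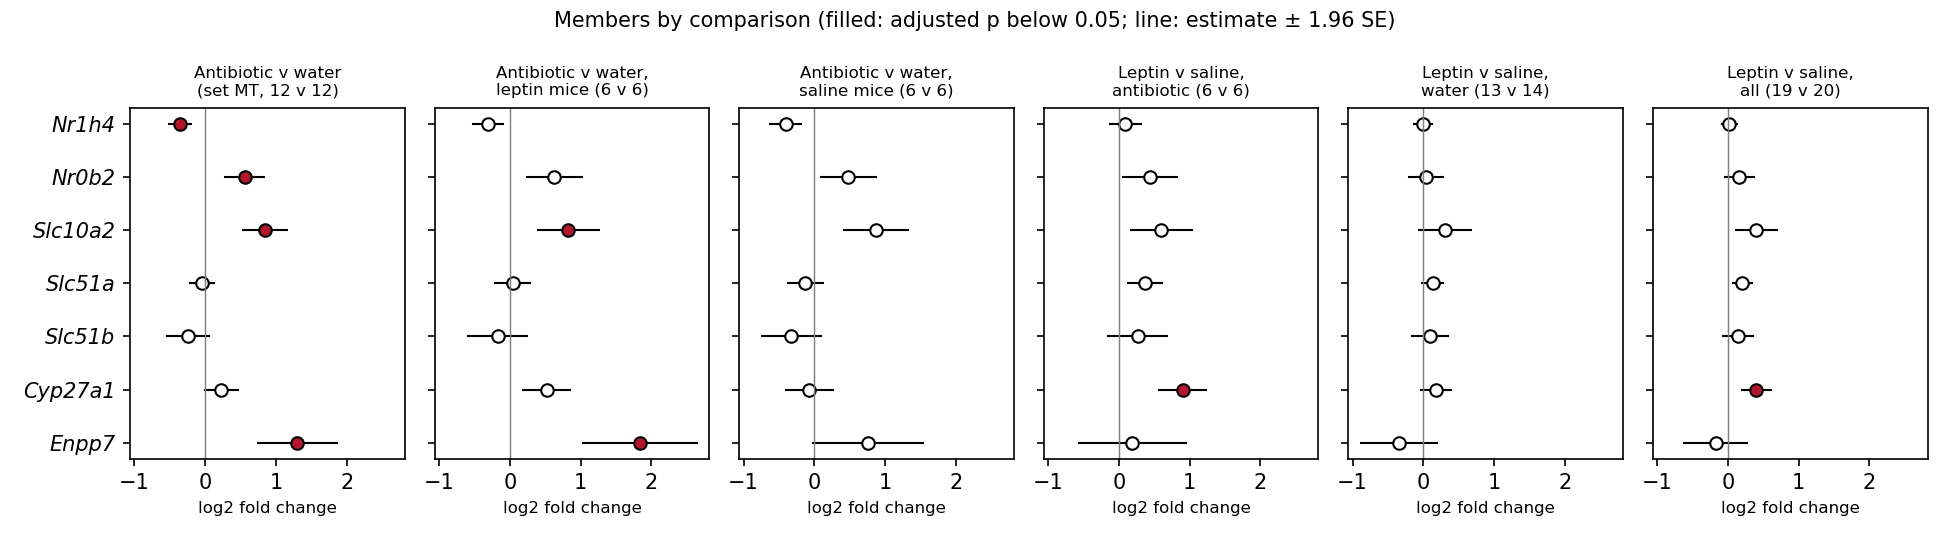
Log2 fold changes of the 7 genes in 6 comparisons, with lines for the 95% interval and filled points for an adjusted p below 0.05. The antibiotic contrast over both injections holds 4 filled points, with Enpp7 highest at 1.30, and both the leptin contrast on antibiotic and that over all libraries hold 1, Cyp27a1. The comparisons share libraries.

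Between sets, the Saline-water libraries of set MT differed from those of set M for 12.2% of all genes and for none of the 7. Nr1h4 averaged 45.9 ± 7.35 CPM in set MT (SD, n = 6) and 38.5 ± 4.52 CPM in set M (n = 8), with a log2 difference of 0.25 (adjusted p = 0.0959). Nr0b2 averaged 5.83 ± 1.82 CPM in set MT and 7.70 ± 0.77 CPM in set M (log2 −0.40, adjusted p = 0.101). Slc10a2, Cyp27a1, Enpp7 and Slc51a had log2 differences of −0.40, −0.16, −0.09 and −0.03, and Slc51b had 0.31 (adjusted p of 0.299 to 0.906). Hepatocyte markers were lower in set MT in 10 of 10, all past the threshold (median log2 −6.31). Their part in the values of Nr0b2 and Cyp27a1, which liver also expresses, was not tested. What separates the sets beyond the library names is not in the labels.

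Around these genes, the sphingomyelin and ceramide list had 5 members of 39 past the threshold with antibiotic over both injections, 4 higher and 1 lower (median log2 0.05), where 4.24% of all genes were higher and 2.22% lower. Beside Enpp7, the higher ones were Samd8, Sgpl1 and Cers6. Samd8, a ceramide phosphoethanolamine synthase related to the sphingomyelin synthases, averaged 254 ± 38.2 CPM with antibiotic and 199 ± 27.2 CPM on water (log2 0.36, adjusted p = 0.000931). Sgpl1, the lyase that ends sphingolipid breakdown, averaged 173 ± 21.7 and 147 ± 12.6 CPM in antibiotic and water libraries (log2 0.24, adjusted p = 0.0188), and the ceramide synthase gene Cers6 rose too (log2 0.14, adjusted p = 0.0492). Smpdl3a, a phosphodiesterase related to acid sphingomyelinase, was lower (log2 −0.27, adjusted p = 0.0493).

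Of the bile acid synthesis and conjugation list, 2 of 15 measured genes were higher with antibiotic (median log2 0.13), against 4.24% of all genes. Akr1c14, a 3-alpha-hydroxysteroid dehydrogenase of sterols and bile acid intermediates, averaged 90.3 ± 16.6 CPM with antibiotic and 57.4 ± 16.8 CPM on water (log2 0.67, adjusted p = 0.00288). Fdx1, the ferredoxin that supplies electrons to mitochondrial P450 enzymes such as CYP27A1, averaged 34.9 ± 2.50 and 30.6 ± 3.47 CPM in antibiotic and water libraries (log2 0.20, adjusted p = 0.0373). Among 11 other bile acid and sterol transporters, Abcc3, a basolateral exporter of conjugates, averaged 244 ± 33.5 CPM with antibiotic and 291 ± 36.3 CPM on water and was lower (log2 −0.24, adjusted p = 0.0496). None of the 18 FXR partners and other bile acid receptors, of the 10 regulators of the ileal pattern or of the 7 measured FXR-responsive genes passed in this contrast, with medians of −0.02, 0.01 and −0.16. The median over all genes was 0.00.

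With leptin on antibiotic, 1 of the 18 FXR partners and bile acid receptors rose, Nr1i2, the xenobiotic receptor PXR that also binds bile acids (log2 0.48, SE 0.08, adjusted p = 0.00980), and 0 passed in the other lists, where 0.514% of all genes passed. Nr1i2 averaged 159 ± 11.6 CPM in Leptin-antibiotic and 115 ± 11.7 CPM in Saline-antibiotic libraries (SD, n = 6 each). On water, over both sets, it averaged 155 ± 12.9 CPM with leptin (n = 13) and 140 ± 16.8 CPM with saline (n = 14). With antibiotic in saline mice it had log2 −0.33 and did not pass (adjusted p = 0.0865). Over all libraries, where 3.01% of all genes passed, leptin raised 3 of the 18 (Hnf4g, Nr1i2 and the coactivator gene Ppargc1a, with log2 fold changes of 0.33, 0.24 and 0.26). It raised 1 of 11 transporters, the apical conjugate pump Abcc2 (0.29, adjusted p = 0.0181), which is also 1 of the 7 FXR-responsive genes. It also raised 1 of 10 ileal pattern regulators, Gata6 (0.15, adjusted p = 0.0392), and 2 of 39 sphingolipid genes, Samd8 (0.27, adjusted p = 0.000351) and Cers2 (0.17, adjusted p = 0.0339). On water alone, where 0.312% of all genes passed, the called ones were Hnf4g (1 of 18) and Samd8 (1 of 39), both with an adjusted p of 0.0489.

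The genes varied together only in part. Pearson correlations of log2 CPM were taken over the 39 libraries after subtracting each set and group mean, and they describe libraries that share preparation, depth and tissue make-up. The efflux partners Slc51a and Slc51b had r = 0.68, the highest of the 21 pairs. Slc10a2 and Cyp27a1 had 0.60, Slc51b and Enpp7 0.55, and Nr1h4 and Slc10a2 0.55. Nr1h4 and its induced gene Nr0b2 had −0.27, and Slc10a2 and Enpp7, which both rose with antibiotic, had −0.19. Enterocyte markers had r = 0.78 with Slc51a, 0.55 with Slc51b, 0.53 with Enpp7 and 0.46 with Slc10a2 and with Cyp27a1. The distal small intestine list beside the bile acid genes (Cubn, Pyy, Gcg and Clec2h measured) had 0.57 with Cyp27a1 and 0.52 with Slc10a2.

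**Figure D4:**
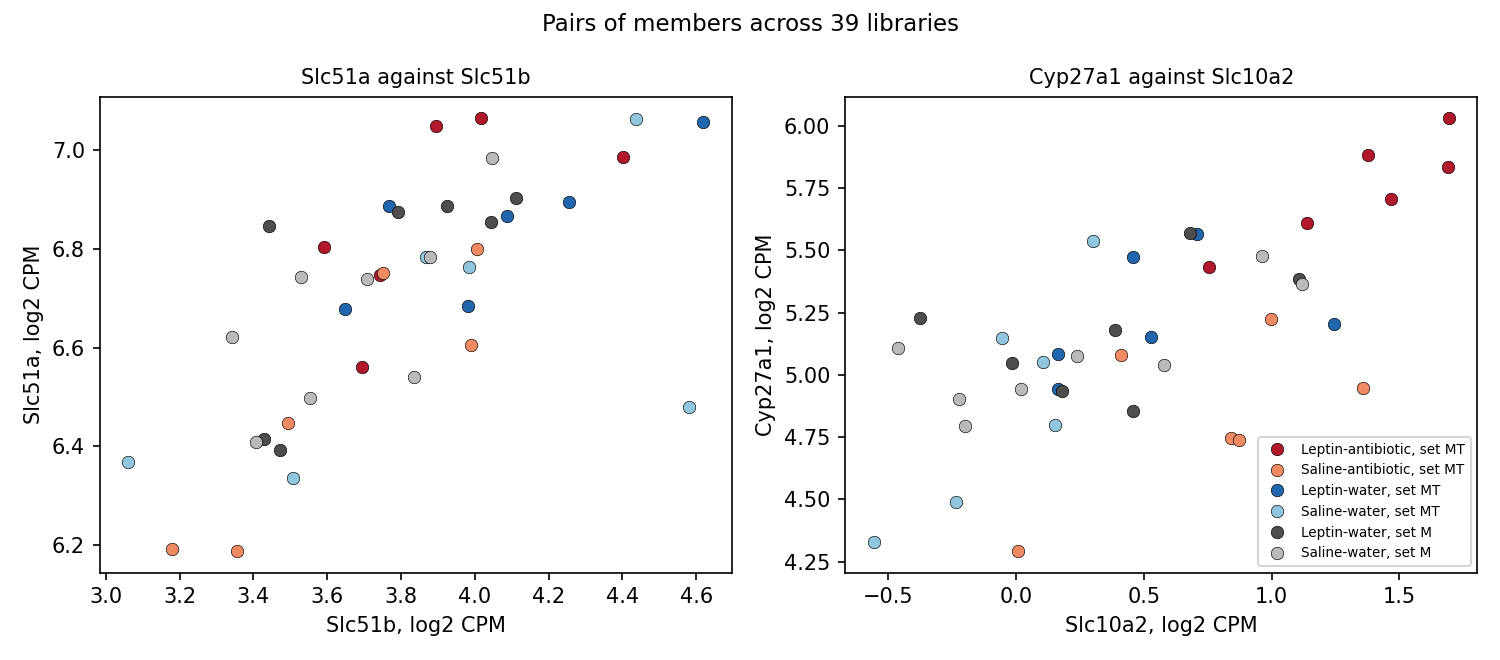
Log2 CPM of Slc51a against Slc51b (left) and of Cyp27a1 against Slc10a2 (right) in the 39 libraries, coloured by set and group. The efflux partners rise together across all groups (r = 0.68 within set and group). For Cyp27a1 and Slc10a2 the Leptin-antibiotic libraries lie towards the upper right but overlap other groups. Leptin-antibiotic 5 (43.2 CPM of Cyp27a1, 1.64 CPM of Slc10a2) is inside the range of other groups for both genes.

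Among genes with a mean of at least 1 log2 CPM, the most alike in pattern to Slc51a were Lpcat3, Myo1a and Rab6a (r of 0.86, 0.86 and 0.85). Those for Slc51b were Pitpna, Fam3b and Arpc2 (0.84, 0.81 and 0.80), and Tnip1 and Susd2 were among those for Enpp7 (0.80 and 0.79). Cyp27a1 was most like Fut4, Gk5 and Tmem37 (0.80, 0.79 and 0.79), and Slc10a2 most like Lrrc19, Aamdc and Tmem126b (0.71, 0.68 and 0.67). Nr1h4 was most like Tmc5, Rnf125 and Piga (0.78, 0.77 and 0.72), and Nr0b2 most like Mgat1, Naprt and Crkl (0.74, 0.72 and 0.72). These are among the 3 highest for each gene, of 13125 or 13126 genes searched.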

How the data were processed

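The authors deposited raw read counts by gene symbol, in 1 table called filtered. Its filter, annotation and strand setting: not given in the sources used here. Per the submitters' processing notes, mm10 was the build and HISAT2, featureCounts, FastQC and edgeR 3.42.0 were the tools. Per the labels' protocols, stranded total RNA libraries were made after ribosomal RNA depletion. The test was the quasi-likelihood F test of edgeR 4.0.16 under R 4.3.3, with TMM factors, filterByExpr and Benjamini-Hochberg adjustment over all genes tested, at a threshold of 0.05. Leptin on water used 27 libraries with set as a term, comparisons with antibiotic used 1 fit of the 24 set MT libraries, and leptin over all used 39 libraries with stratum as a term. SE was taken from the F value and the log2 estimate, and 95% intervals use the normal distribution. CPM is TMM-scaled, and log2 CPM has a prior count of 2. Positions and exon lengths are from GENCODE vM21 (GRCm38), and promoters are from RefSeq, which held all 7 genes. Scripts were tested on simulated data. Alternatives were DESeq2 1.42.0, limma 3.58.1 (voom with quality weights), upper quartile factors, no filter, leaving out libraries, a replicate block and, added after seeing the data, an enterocyte covariate. The genes, lists and tests were chosen with earlier results of these data known. The 7 genes were to be named in every comparison. From each pathway list, genes past the threshold were named, or otherwise at most the 3 of lowest p. For each of the 7, the 3 genes of most similar pattern were named too. Some results that these rules would name are not reported here. Library columns were compared in 109 pairs of the same set and group, of which 0 were identical.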

Additional observations from a re-analysis of the deposited data

How the results depend on the processing

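With antibiotic over both injections 4 genes passed by DESeq2, by limma voom, with upper quartile factors, with no filter and with any library left out, and 2 without the libraries high in pancreas genes. With the enterocyte covariate 3 passed, of which only Nr1h4 was among the 4: Slc10a2, Nr0b2 and Enpp7 no longer passed, and Slc51a and Slc51b were lower. In leptin mice the count of 2 was 4 by DESeq2 and limma voom, 1 with no filter or upper quartile factors, 0 with the enterocyte covariate and 0 to 2 with 1 library left out. In saline mice the count of 0 was 2 by DESeq2 and 1 with the covariate, and 0 with any library left out. For leptin on antibiotic the count of 1 was 0 with the covariate, 0 when the libraries high in pancreas genes were left out, 0 with a replicate block and 0 to 1 with 1 library left out. For leptin over all libraries it was 0 with the covariate, 0 when the libraries high in pancreas genes were left out, and 1 to 2 with 1 library left out. The cause of these changes was not tested. Over all genes, alternatives called 0 to 173 for leptin on water (51 as reported), 0 to 443 for leptin on antibiotic (84), 17 to 253 for antibiotic in saline mice (32), 89 to 1394 in leptin mice (372), 873 to 2201 over both injections (1054), 0 to 75 for the difference by set (7) and 92 to 698 for leptin over all libraries (492). Leaving out single libraries was not run for the difference by set or for the sets in Saline-water.

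Replicate numbers do not mark shared animals in the labels. Same-numbered libraries had deviations with r of −0.26 to 0.58 on antibiotic (1 of 6 pairs above 0.1) and −0.28 to 0.25 on water (3 of 13 pairs), and 1 of 6 and 0 of 13 leptin libraries correlated best with their own number. With the replicate block the genes called were 13 on antibiotic (84 without it) and 0 on water (51 without it), and Cyp27a1 stood at log2 0.90 (adjusted p = 0.102).

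Values that changed sign had not passed in either fit. For leptin on water they were Nr1h4 0.0084 and Nr0b2 −0.072 by limma voom, Nr0b2 −0.0085 with the covariate, and Nr0b2 −0.16 and Enpp7 0.061 in set M alone. For leptin on antibiotic they were Nr1h4 −0.0075, Slc51b −0.023 and Enpp7 −0.40 without the libraries high in pancreas genes, and Slc51b −0.12 and Enpp7 −0.58 with the covariate. For the antibiotic, Slc51a was 0.081 in saline mice and 0.063 over both injections without the libraries high in pancreas genes. In leptin mice it was −0.32 with the covariate, −0.00017 by limma voom and −0.0074 with upper quartile factors. In the difference by antibiotic, Slc10a2 was 0.065 by limma voom and 0.033 without the libraries high in pancreas genes. Slc51a was −0.017 with the covariate and −0.037 without those libraries, and Slc51b was −0.060 with the covariate and −0.13 by limma voom. In the difference by set, Nr1h4 was −0.015 by DESeq2, −0.013 with no filter, −0.046 with upper quartile factors and −0.089 without the libraries high in pancreas genes, and Slc51b was −0.019 and −0.15 under the last pair of settings. For leptin over all libraries, Nr1h4 was −0.015 with the covariate and −0.031 without the libraries high in pancreas genes, Slc51b was −0.022 with the covariate and Enpp7 was 0.0086 by limma voom.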

Other observations

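Between the sets in Saline-water libraries, where 12.2% of all genes passed, 3 of 15 bile acid synthesis and conjugation genes were lower in set MT and 0 higher, and of 11 other bile acid and sterol transporters 2 were lower and 1 higher. Slc27a5, the bile acid CoA ligase gene, averaged 0.636 ± 0.251 CPM in set MT (SD, n = 6) and 6.89 ± 3.58 CPM in set M (n = 8), a log2 difference of −3.43 (adjusted p = 6.88e-05). Baat, which encodes the enzyme that joins bile acids to amino acids, averaged 0.400 ± 0.183 CPM in set MT and 1.85 ± 0.891 CPM in set M (log2 −2.23, adjusted p = 0.000963). The oxysterol hydroxylase gene Cyp7b1 averaged 1.77 ± 0.409 CPM in set MT and 3.71 ± 1.77 CPM in set M (log2 −1.06, adjusted p = 0.0221). Abcb4, the canalicular phospholipid pump gene, averaged 1.33 ± 0.457 CPM in set MT and 3.99 ± 0.961 CPM in set M (log2 −1.57, adjusted p = 0.000298). Slc10a1, the hepatic uptake carrier gene, averaged 6.66 ± 1.29 CPM in set MT and 10.0 ± 2.00 CPM in set M (log2 −0.59, adjusted p = 0.0157). The apical efflux pump gene Abcg2 was higher in set MT, at 122 ± 9.46 CPM, against 104 ± 8.80 CPM in set M (log2 0.22, adjusted p = 0.0335).

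Alb was also lower in set MT. Over libraries of all groups it had a mean of 0.315 CPM in the 23 set MT libraries other than Saline-antibiotic 2, 41.1 CPM in Saline-antibiotic 2 and 254 CPM in the 15 set M libraries. Ahsg and Serpina3k, further secreted liver proteins, had no count in 17 of those 23 libraries each. Cyp27a1 had 33.7 CPM in Saline-antibiotic 2, inside the range of its group.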
